A study of Mus musculus with 6 samples.

Results

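The primary cilium genes described here are a set of 53 named mouse genes, listed by symbol with earlier results of these data known. They are 11 subunits of intraflagellar transport complex B (IFT-B), 6 of complex A (IFT-A), 4 motor subunits, 9 genes of the BBSome and its assembly, 15 genes of the transition zone, 3 of the Inversin compartment, 4 of ciliary membrane cargo and 1 of the basal body. The count tables held 56923 gene identifiers, and 52 of the 53 genes had a row in them. All 52 passed the filter on low counts and stand among the 18273 genes tested. Tctn2, the remaining gene, is not analysed here.

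The primary cilium is a single antenna that projects from the apical side of most kidney tubule cells into the urine and carries polycystin-1, the product of Pkd1, in its membrane. Intraflagellar transport builds it: kinesin motors move IFT-B trains with tubulin to the tip, dynein motors return them with IFT-A, and the BBSome carries membrane proteins out. The transition zone at the base is a gate that decides which proteins enter, and the Inversin compartment is a segment just above it. Inherited defects in many of these genes give cystic or fibrotic kidneys, as in nephronophthisis and in Bardet-Biedl, Joubert and Meckel syndromes.

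Messenger RNA was sequenced from whole snap-frozen kidneys of male mice, 3 Pkd1 KO and 3 control animals. Pkd1 KO mice carried Pkd1flox/flox.Pax8rtTA.Tet-O-Cre, in which the Pax8 promoter drives the doxycycline-dependent activator of Cre in tubule epithelium, so that other kidney cells are not targeted. Control mice carried Pkd1flox/flox.Tet-O-Cre and lacked the activator. Both groups drank doxycycline at 2 mg/ml with 5% sucrose for 14 days, between postnatal days 28 and 42, and were analysed at 10 weeks of age. The comparison asks which ciliary transcripts differ in a kidney whose tubules lost Pkd1 in early adult life.

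Gene counts per library ran between 45020173 and 62983791, and the first principal component, with 70.4% of the variance, separated the groups. Pkd1 itself had 8.77, 9.003 and 10.01 CPM in Pkd1 KO, against 30.01, 46.4 and 23.6 CPM in control (log2 fold change -1.85 ± 0.24, adjusted p = 0.00234). CPM is the read count per gene scaled to the library's reads in the tested genes and by edgeR's TMM factors. The counts cover all exons of Pkd1 and do not separate the deleted ones. A fold change here is Pkd1 KO over control, and ± after it gives its standard error. The 3 Pkd1 KO libraries came from one sequencing project and the 3 control libraries from another, so genotype and project cannot be told apart. Over all tested genes, the fold change fell with exon length (Spearman's rho -0.39) and with GC content (rho -0.39). Each call on a ciliary gene is therefore also given from a second fit with GC and length offsets per library. With offsets, Pkd1, a long and GC-rich gene, had a log2 fold change of -0.34 (adjusted p = 0.0644). Markers of other kidney cells and states differed as well: the summed level of 5 proximal tubule markers was 3275 to 3743 CPM in the Pkd1 KO libraries, against 5152 to 10937 CPM in the control libraries. Of the 5 markers 4 fell. Thick ascending limb sums were 1275 to 1727 CPM in Pkd1 KO, against 3039 to 4056 CPM in control (2 of 3 markers fell). Distal convoluted tubule sums were 393 to 482 CPM, against 1055 to 1339 CPM (3 of 3 fell). Principal cell sums were 372 to 477 CPM, against 573 to 683 CPM (4 of 4 fell). Podocyte and intercalated cell sums were lower too, T cell sums were higher, and endothelium, fibroblast and B cell sums overlapped. A sum of 5 macrophage markers was 153 to 254 CPM in Pkd1 KO, against 88.2 to 113 CPM in control. Of these 5 genes, 2 rose (Lyz2 and C1qa), 1 fell (Csf1r) and 2 did not pass. A sum of 4 proliferation markers was 32.7 to 57.97 CPM in Pkd1 KO, against 7.63 to 8.66 CPM in control. The part of these differences in the ciliary values was not tested, and in whole kidney fewer ciliated cells and less RNA per cell cannot be told apart.

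Many ciliary genes carry an X-box near their start, the motif bound by RFX transcription factors. It was searched as GTNNCC and GGNNAC with 0 to 3 bases between them, a pattern that reads the same on both strands. The search covered RefSeq promoter windows of mouse build GRCm38.p6, which span 250 bases before to 50 bases after the start. Of the 52 genes, 46 had a window and 13 of them (28.3%) held a match. The same pattern stood in the windows of 1185 of 27025 genes in the table (4.38%) and of 677 of the 12397 tested genes found there (5.46%). By group, 7 of 13 transition zone genes, 3 of 9 BBSome genes, 2 of 9 IFT-B genes and 1 of 5 IFT-A genes held one, and no motor, Inversin compartment, cargo or basal body gene did. A match is a run of letters and not a shown binding site. Among the 15 matches, 13 had 2 bases between GTNNCC and GGNNAC and 2 had 1 base. The 3 windows below belong to genes that kept the direction of their call with offsets: Ift22 rose, while Ift57 and Ahi1 fell. Each is written 5′ to 3′ on the gene's strand, with X-box matches in capitals. Ift22 lies at chr5:136907900-136908199 on the plus strand and holds 2 matches. Ift57 lies at chr16:49699044-49699343 on the plus strand and also holds 2, and Ahi1 lies at chr10:20952297-20952596 on the plus strand and holds 1.
Ift22: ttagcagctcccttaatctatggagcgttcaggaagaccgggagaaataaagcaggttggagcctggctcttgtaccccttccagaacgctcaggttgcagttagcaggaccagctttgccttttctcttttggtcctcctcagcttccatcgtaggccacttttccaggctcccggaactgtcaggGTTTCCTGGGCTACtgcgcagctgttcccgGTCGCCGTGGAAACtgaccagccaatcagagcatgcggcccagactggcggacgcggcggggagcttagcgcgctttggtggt
Ift57: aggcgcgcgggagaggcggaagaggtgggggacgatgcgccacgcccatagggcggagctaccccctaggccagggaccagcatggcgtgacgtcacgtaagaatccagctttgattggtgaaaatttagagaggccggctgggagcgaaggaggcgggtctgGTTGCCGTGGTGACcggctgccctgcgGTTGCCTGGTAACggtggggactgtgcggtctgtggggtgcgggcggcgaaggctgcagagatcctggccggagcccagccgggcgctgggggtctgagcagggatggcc
Ahi1: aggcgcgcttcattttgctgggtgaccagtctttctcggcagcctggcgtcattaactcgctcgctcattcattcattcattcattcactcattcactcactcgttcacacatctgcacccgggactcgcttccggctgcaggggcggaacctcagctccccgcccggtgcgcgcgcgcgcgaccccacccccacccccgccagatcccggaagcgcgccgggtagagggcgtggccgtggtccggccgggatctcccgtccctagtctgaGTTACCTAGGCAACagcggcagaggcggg

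The matches of the other 10 genes are shown alone, in capitals throughout, to let them be compared across genes that rose, fell or did not pass the threshold. Those on the plus strand lie at chr5:65199662-65199675 (Wdr19), chr4:152477911-152477924 (Nphp4) and chr11:87853191-87853204 (Mks1). On the minus strand they lie at chr19:10555731-10555744 (Tmem216), chr19:4906613-4906626 (Bbs1), chr8:111933789-111933802 (Tmem231) and chr5:122264411-122264424 (Tctn1). The others on the minus strand lie at chr9:59353472-59353485 (Bbs4), chr3:36613497-36613510 (Bbs7) and chr19:40612359-40612371 (Tctn3).
Tmem216: GTTTCCATGGGGAC
Wdr19: GTCTCCTGGGTGAC
Bbs1: GTTGCCAAGGCGAC
Nphp4: GTCTCCTAGGTAAC
Tmem231: GTTGCCGTGGAGAC
Tctn1: GTTGCCCGGGCAAC
Bbs4: GTCGCCCGGGAAAC
Bbs7: GTTGCCTTGGAAAC
Mks1: GTTGCCAGGGGAAC
Tctn3: GTTGCCAGGTAAC
Tmem216 rose, Wdr19, Bbs1, Nphp4, Tmem231 and Tctn1 fell, and Bbs4, Bbs7, Mks1 and Tctn3 did not pass the threshold. An X-box match stood in 2 of the 12 genes with a window that rose, in 7 of the 16 that fell and in 4 of the 18 that did neither.

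Of the 52 genes, 31 (59.6%) changed in Pkd1 KO kidneys at an adjusted p under 0.05, 12 higher and 19 lower. Over all tested genes 46.9% changed, 22.7% higher and 24.2% lower. The median log2 fold change of the set was -0.0061, against 0.026 over all tested genes, and genes moved in both directions. At least 2-fold changes were 3 higher (B9d1, Bbs12 and Ift20) and 7 lower (Ift172, Nphp4, Anks6, Kif3a, Ift140, Cep290 and Cc2d2a), where 22.1% of all tested genes changed that much. The 3 Pkd1 KO libraries lay wholly above the 3 controls for 16 genes and wholly below them for 19, while 17 overlapped. Over all tested genes 61.2% did not overlap, 31.2% above and 30% below. With GC and length offsets 21 of the 52 genes (40.4%) passed, 10 higher and 11 lower, against 34.5% of all genes so fitted (17.1% higher and 17.3% lower). The median with offsets was -0.11, against 0.00083 over all genes. The 2 fits gave the same direction past the threshold for 14 genes (26.9%), against 24.7% of all genes (12.5% higher and 12.2% lower). Those 14 were Ift20, Ift22, Ift27, Bbs12, B9d1 and B9d2, which rose, and Ift57, Ift172, Ift140, Kif3a, Kif3b, Cep290, Cc2d2a and Ahi1, which fell. The shares with offsets and in both fits lie close to the background. Without Pkd1 KO 1, 2 or 3 the count of 31 became 18, 12 and 17 of 52 (34.6%, 23.1% and 32.7%), against 32.9%, 27.1% and 31.5% of all genes, and without control 1 it became 17 (32.7%), against 32.2%. In these 4 fits the ciliary share was thus close to or below that of all genes. Without control 2 or control 3 it was above: 27 (51.9%) and 36 (69.2%), against 45.5% and 54.5%. With offsets those 4 fits gave 11, 11, 12 and 12 genes (21.2%, 21.2%, 23.1% and 23.1%), against 21.8%, 15.6%, 19% and 19.6% of all genes. Without control 2 or control 3 the offset fits gave 17 (32.7%) and 26 (50%), against 33.6% and 40.8%. In both fits those 4 gave 8, 5, 5 and 9 genes, and leaving out control 2 or control 3 gave 11 and 19. The share of all genes in both fits was not taken for these counts. The shares of all genes given above moved with the library left out. Of the 14 genes called in both fits, the call with offsets held in 2 of the 6 fits that left out 1 library for Ift20, in 1 for Ift140, 4 for Bbs12, 3 for Cc2d2a and 1 for Ahi1, and in all 6 for the other 9.

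**Figure D1:**
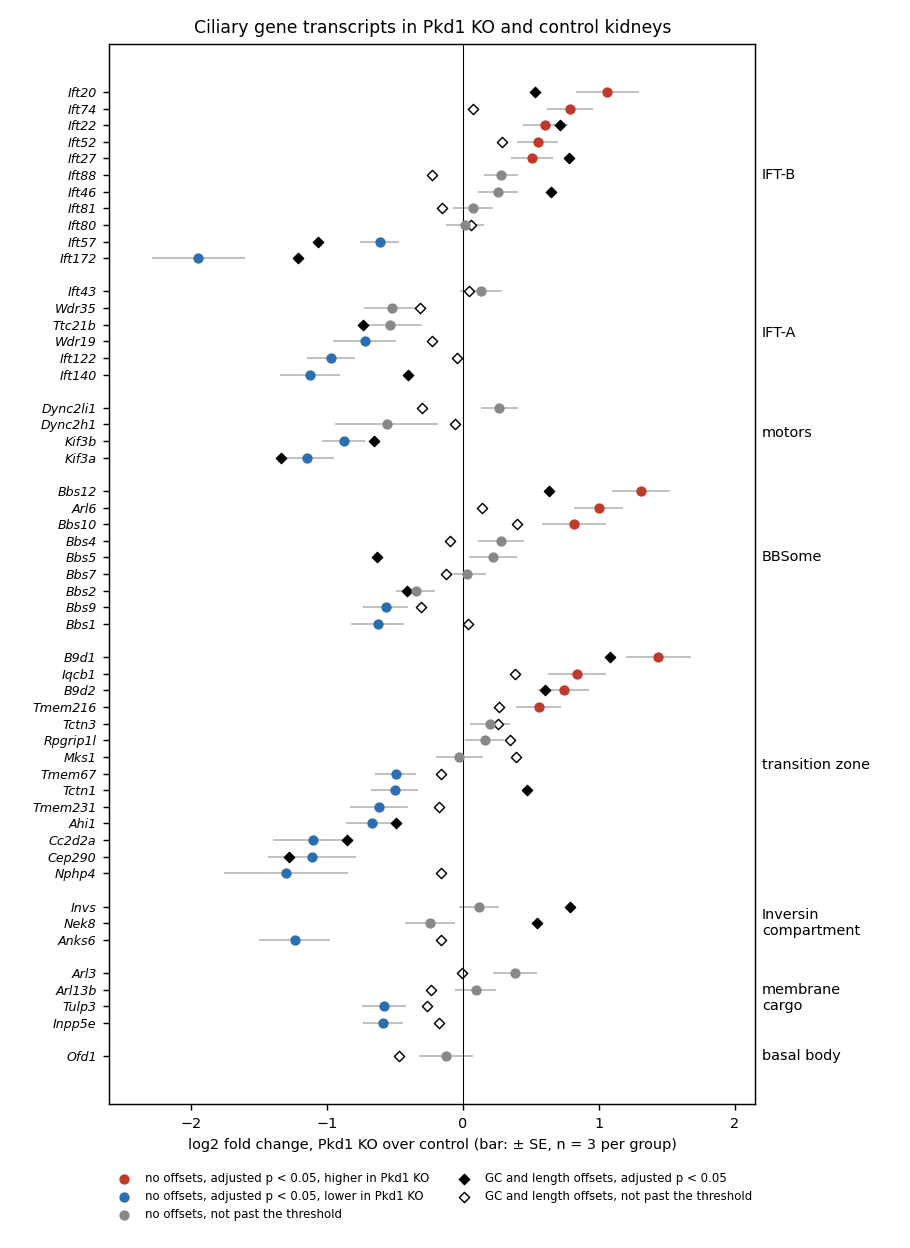
Log2 fold change of the 52 ciliary genes, Pkd1 KO over control, ordered by complex. Circles with ± SE bars are from the fit without offsets (red higher, blue lower, grey not past the threshold; n = 3 per group) and diamonds from the fit with GC and length offsets (filled where past the threshold); no IFT-A or motor circle is red (the motor Dync2li1 passes as higher with upper-quartile scaling), while IFT-B, BBSome and transition zone genes lie on both sides of 0.

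In IFT-B, the anterograde train, 5 of 11 genes rose, 2 fell and 4 did not pass the threshold. The share called was 63.6%, against 46.9% of all genes, and 54.5% with offsets, against 34.5%. The median log2 fold change of the 11 was 0.28 without offsets, 0.075 with them and 0.44 with upper-quartile scaling. Ift20, the small subunit that also works at the Golgi to send membrane proteins to the cilium, had 109.7, 123 and 112 CPM in Pkd1 KO, against 48.6, 39.6 and 76.6 CPM in control (log2 fold change 1.06 ± 0.23, adjusted p = 0.00656). Ift74, which binds tubulin together with Ift81, had 37.2, 34.5 and 35.7 CPM in Pkd1 KO, against 18.9, 17.5 and 25.7 CPM in control (log2 fold change 0.79 ± 0.17, adjusted p = 0.00644). Ift22, a small GTPase-like subunit, had 39.4, 42.7 and 40.2 CPM in Pkd1 KO, against 26.2, 21.9 and 32.3 CPM in control (log2 fold change 0.61 ± 0.16, adjusted p = 0.0162). In all 3 genes each Pkd1 KO library lay above every control, and control 2 was the lowest library. Ift52, a core scaffold subunit, had 85.1, 81.5 and 80.8 CPM in Pkd1 KO, against 58.6, 46.9 and 63.6 CPM in control (log2 fold change 0.55 ± 0.15, adjusted p = 0.0156). Ift27, a GTPase-like subunit that helps the BBSome and its cargo leave the cilium, had 13.7, 15.4 and 15.5 CPM in Pkd1 KO, against 10.7, 9.04 and 11.5 CPM in control (log2 fold change 0.51 ± 0.15, adjusted p = 0.0247). For both genes the groups were again apart.

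The largest fall of the whole set without offsets was in the same complex. Ift172, the large subunit that works in turning trains round at the ciliary tip, had 7.22, 7.002 and 7.97 CPM in Pkd1 KO, against 25.2, 44.9 and 15.2 CPM in control (log2 fold change -1.95 ± 0.34, adjusted p = 0.00343). The Pkd1 KO libraries were close together, while the controls were widely spread, with control 2 highest and control 3 lowest. Without control 2 the fold change was -1.49 (adjusted p = 0.000449). Ift57, a peripheral subunit next to Ift20, had 21.3, 17.6 and 17.9 CPM in Pkd1 KO, against 27.6, 31.8 and 27.4 CPM in control (log2 fold change -0.61 ± 0.15, adjusted p = 0.00951), with no overlap. Ift88, the subunit disrupted in the Oak Ridge polycystic kidney mouse, had 25.3, 24.4 and 24.4 CPM in Pkd1 KO, against 19.97, 20.5 and 20.6 CPM in control and did not pass the threshold (0.28, adjusted p = 0.0922), although the groups did not overlap. Ift46 (0.26, adjusted p = 0.181), Ift81 (0.077, adjusted p = 0.684) and Ift80 (0.013, adjusted p = 0.946) overlapped between groups. With offsets Ift20 (0.53, adjusted p = 0.0216), Ift22 (0.71, adjusted p = 0.00718) and Ift27 (0.78, adjusted p = 0.00508) remained higher, Ift57 (-1.07, adjusted p = 0.00259) and Ift172 (-1.21, adjusted p = 0.00554) remained lower, and Ift46 also passed as higher (0.65, adjusted p = 0.0155). The rises of Ift74 (0.075, adjusted p = 0.6404) and Ift52 (0.29, adjusted p = 0.0699) did not pass with offsets. In fits that left out 1 library, adjusted p exceeded the threshold for Ift22 (0.0541 to 0.0699, without Pkd1 KO 2, Pkd1 KO 3 or control 1) and Ift57 (0.05197 to 0.0544, without Pkd1 KO 2 or Pkd1 KO 3). It also did for Ift52 (0.05398 to 0.0619) without any 1 Pkd1 KO library or control 1 and for Ift27 (0.0509 to 0.0937) without any 1 library but control 3, and upper-quartile scaling added Ift88 as higher (0.44, adjusted p = 0.0192).

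IFT-A, which returns cargo and brings membrane receptors into the cilium, had no gene higher and 3 of its 6 genes lower. This share (50%) was close to the 46.9% of all genes called. With offsets 33.3% passed, against 34.5% of all genes, and in both fits 16.7%, against 24.7%. The IFT-A median log2 fold change was -0.63 without and -0.27 with offsets. Ift140, a core subunit mutated in skeletal ciliopathies and in a mild human polycystic kidney disease, had 8.07, 7.58 and 8.18 CPM in Pkd1 KO, against 16.6, 22.9 and 12.3 CPM in control (log2 fold change -1.12 ± 0.22, adjusted p = 0.00488). Ift122, another core subunit, had 41.7, 29.6 and 32.2 CPM in Pkd1 KO, against 66.6, 77.8 and 58.4 CPM in control (log2 fold change -0.97 ± 0.18, adjusted p = 0.00375). Wdr19, the third core subunit and a nephronophthisis gene, had 9.56, 8.41 and 8.32 CPM in Pkd1 KO, against 11.6, 20.2 and 11.5 CPM in control (log2 fold change -0.72 ± 0.23, adjusted p = 0.0313). In each of the 3 genes every Pkd1 KO library lay below every control, and control 2 was the highest library. The peripheral subunits did not pass: Wdr35 (-0.52, adjusted p = 0.0649) and Ttc21b (-0.54, adjusted p = 0.0875) were lower in value, with Pkd1 KO 2 above control 3 in each. Ift43, the smallest subunit, differed least (0.13, adjusted p = 0.496). With offsets Ift140 stayed past the threshold (-0.40, adjusted p = 0.04196), though in only 1 of the 6 fits that left out 1 library, and Ttc21b passed as lower (-0.74, adjusted p = 0.0256), while Ift122 (-0.044, adjusted p = 0.851) and Wdr19 (-0.23, adjusted p = 0.284) did not pass. Wdr19 rests on every Pkd1 KO library, with an adjusted p of 0.0676 to 0.103 when Pkd1 KO 1, 2 or 3 was left out, and its fold change without control 2 was -0.43. With upper-quartile scaling it did not pass (-0.55, adjusted p = 0.0652).

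Among the motors, the kinesin-2 pair that drives IFT-B trains outward fell. The pair makes up 50% of the motor genes, where 46.9% of all genes changed, and 50% passed with offsets, against 34.5%. Kif3a, whose deletion in mouse kidney tubules gives cysts, had 6.53, 8.101 and 7.28 CPM in Pkd1 KO, against 17.1, 19.5 and 11.98 CPM in control (log2 fold change -1.15 ± 0.20, adjusted p = 0.00356). Its partner Kif3b had 23.4, 21.7 and 23.04 CPM in Pkd1 KO, against 43.7, 47.4 and 33.8 CPM in control (log2 fold change -0.87 ± 0.16, adjusted p = 0.00369). Neither gene overlapped between groups, and both passed with offsets, Kif3a (-1.34, adjusted p = 0.00299) and Kif3b (-0.65, adjusted p = 0.005005). Both kept the call in all 6 fits that left out 1 library. Kifap3, a kinesin-2 subunit outside the set, did not pass (-0.076, adjusted p = 0.698). The dynein-2 subunits of the return journey in the set, Dync2h1 and Dync2li1, did not pass the threshold. Outside the set, Wdr60 fell (-1.06, adjusted p = 0.00565). Tctex1d2 rose (1.11, adjusted p = 0.00241), but not with offsets (0.36, adjusted p = 0.0577). Wdr34 did not pass (0.17, adjusted p = 0.384), but rose with offsets (0.49, adjusted p = 0.022). Dync2h1, the motor heavy chain, had 11.8, 14.1 and 13.9 CPM in Pkd1 KO, against 14.3, 33.96 and 10.3 CPM in control (-0.56, adjusted p = 0.248). This value rests on control 2, and without it was 0.072 (adjusted p = 0.768). Dync2li1, the light intermediate chain, had 44.6, 38.2 and 40.5 CPM in Pkd1 KO, against 33.04, 31.9 and 37.4 CPM in control (0.27, adjusted p = 0.132). Its groups did not overlap, and with upper-quartile scaling it passed as higher (0.43, adjusted p = 0.0355).

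**Figure D2:**
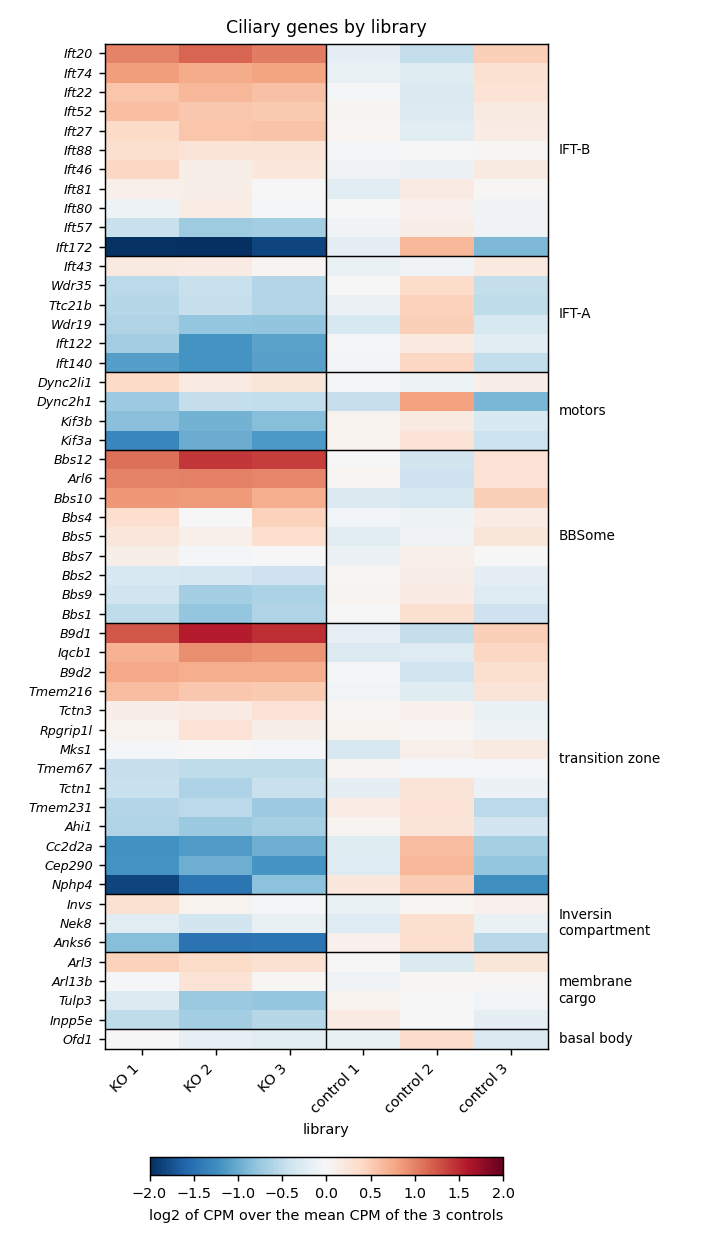
Level of each of the 52 ciliary genes in the 3 Pkd1 KO and 3 control libraries, as log2 of CPM over the mean CPM of the 3 controls (colour scale -2 to 2; red above, blue below). The Pkd1 KO columns resemble each other, and control 3 is on the Pkd1 KO side of control 2 for each of the 31 changed genes.

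The controls differed among themselves along the same genes: control 3 lay on the Pkd1 KO side of control 2 for 31 of the 31 changed genes, and of all 3 controls it was the nearest to Pkd1 KO for 30. Over the 12 genes that rose, the median log2 level relative to the control mean was 0.80, 0.79 and 0.76 in the Pkd1 KO libraries, against -0.043, -0.31 and 0.30 in controls 1, 2 and 3. Over the 19 that fell it was -0.60, -0.78 and -0.80 in the Pkd1 KO libraries, against 0.052, 0.27 and -0.39 in controls 1, 2 and 3. On the first principal component over all genes the order was alike: the Pkd1 KO libraries had scores of -66.4 to -52.4, against 58.1, 92.65 and 24.2 for controls 1, 2 and 3. These sets were chosen on the same libraries, so the counts and medians are a description. The order of the controls was not counted over all changed genes.

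In the BBSome group, 3 genes rose and 2 fell of 9 (55.6%, against 46.9% of all genes). With offsets 33.3% passed, against 34.5%. Arl6 and the 2 chaperonin-like genes all rose, while none of the 6 structural subunits in the set did. With offsets Bbs12 alone of the BBSome genes in the set rose. Of the BBSome subunits outside the set, Bbip1 rose (1.16, adjusted p = 0.00458), also with offsets (0.59, adjusted p = 0.0176). Ttc8 did not pass (0.38, adjusted p = 0.0537). Bbs12, one of the chaperonin-like proteins that assemble the complex, had 6.81, 8.51 and 8.302 CPM in Pkd1 KO, against 3.19, 2.46 and 3.904 CPM in control (log2 fold change 1.31 ± 0.21, adjusted p = 0.00295). Bbs10, the other, had 8.75, 8.67 and 7.97 CPM in Pkd1 KO, against 3.94, 3.84 and 6.66 CPM in control (log2 fold change 0.82 ± 0.23, adjusted p = 0.0196). Arl6, the GTPase that recruits the BBSome to membranes, had 68.7, 69.6 and 67.9 CPM in Pkd1 KO, against 35.3, 25.9 and 42.1 CPM in control (log2 fold change 0.997 ± 0.18, adjusted p = 0.00375). All 3 were higher in every Pkd1 KO library than in any control, and the Pkd1 KO values of Arl6 lay within 2 CPM of each other. Of the structural subunits, Bbs1, which contacts Arl6, had 12.2, 10.1 and 11.4 CPM in Pkd1 KO, against 17.4, 21.6 and 13.1 CPM in control (log2 fold change -0.63 ± 0.20, adjusted p = 0.0287). Bbs9, a central subunit, had 11.3, 9.33 and 9.58 CPM in Pkd1 KO, against 15.5, 16.7 and 12.5 CPM in control (log2 fold change -0.57 ± 0.17, adjusted p = 0.0221). Bbs2 had 18.3, 17.9 and 16.98 CPM in Pkd1 KO, against 22.9, 24.9 and 19.9 CPM in control (-0.35, adjusted p = 0.0711). Its groups were apart, but it did not pass. Bbs4 (0.28, adjusted p = 0.192), Bbs5 (0.22, adjusted p = 0.323) and Bbs7 (0.031, adjusted p = 0.871) overlapped.

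With offsets Bbs12 kept its call (0.63, adjusted p = 0.0153). Arl6 (0.14, adjusted p = 0.381), Bbs10 (0.40, adjusted p = 0.115) and Bbs9 (-0.31, adjusted p = 0.104) did not pass, and Bbs1 turned to 0.036 (adjusted p = 0.848). Bbs2 (-0.41, adjusted p = 0.0428) and Bbs5 (-0.63, adjusted p = 0.0145) passed as lower, Bbs5 against its sign without offsets. With upper-quartile scaling neither Bbs1 nor Bbs9 passed (adjusted p = 0.0665 and 0.0601). Bbs12 and Arl6 kept the call in every fit without offsets that left out 1 library. Adjusted p exceeded the threshold for Bbs10 (0.06496 to 0.0818, without Pkd1 KO 1, Pkd1 KO 2 or control 1), Bbs1 (0.0627 to 0.113, without any Pkd1 KO library or control 1) and Bbs9 (0.0682 to 0.0933, without Pkd1 KO 2, Pkd1 KO 3 or control 1).

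Of the 14 transition zone genes, 4 rose and 7 fell, with a median log2 fold change of -0.26; with upper-quartile scaling 4 rose and 3 fell, with a median of -0.097. With offsets 3 rose and 3 fell, and the median was 0.26. The share called was 78.6% without offsets, against 46.9% of all genes, and 42.9% with them, against 34.5%. The module of proteins mutated in Meckel syndrome held both directions. B9d1, a lipid-binding B9 domain protein, had 23.1, 28.9 and 27.1 CPM in Pkd1 KO, against 8.74, 7.004 and 13.5 CPM in control (log2 fold change 1.44 ± 0.24, adjusted p = 0.00305). Its partner B9d2 had 26.6, 25.9 and 26.01 CPM in Pkd1 KO, against 15.5, 11.9 and 19.6 CPM in control (log2 fold change 0.74 ± 0.19, adjusted p = 0.01196). Iqcb1, which binds calmodulin and is a nephronophthisis gene with eye disease, had 12.05, 14.2 and 13.8 CPM in Pkd1 KO, against 6.196, 6.26 and 9.94 CPM in control (log2 fold change 0.84 ± 0.21, adjusted p = 0.01201). Tmem216, a small membrane protein of the gate, had 16.3, 15.6 and 15.3 CPM in Pkd1 KO, against 10.3, 9.01 and 12.8 CPM in control (log2 fold change 0.56 ± 0.17, adjusted p = 0.02297). In all 4 every Pkd1 KO library exceeded every control, and B9d1 had the largest rise of the 52 genes.

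Long scaffold proteins were among the genes that fell. Cep290, a long coiled-coil protein that links microtubules to the membrane, had 5.54, 6.44 and 5.603 CPM in Pkd1 KO, against 10.6, 19.97 and 7.43 CPM in control (log2 fold change -1.11 ± 0.32, adjusted p = 0.0211). Cc2d2a, a Meckel and Joubert scaffold protein, had 7.08, 7.45 and 8.33 CPM in Pkd1 KO, against 13.8, 24.9 and 10.3 CPM in control (log2 fold change -1.10 ± 0.30, adjusted p = 0.0155). Ahi1, the jouberin protein, had 8.51, 7.71 and 8.19 CPM in Pkd1 KO, against 13.4, 15.5 and 9.87 CPM in control (log2 fold change -0.67 ± 0.19, adjusted p = 0.0187). For these 3 the groups were apart, and control 2 stood highest. Without control 2 the fold changes were -0.66, -0.69 and -0.55 for Cep290, Cc2d2a and Ahi1. Nphp4, a nephronophthisis protein of the gate, had 0.445, 0.574 and 0.8997 CPM in Pkd1 KO, against 1.83, 2.25 and 0.673 CPM in control (log2 fold change -1.30 ± 0.46, adjusted p = 0.0424). It was the least abundant of the 52 genes, with 22 reads in its lowest library, and its groups overlapped, since control 3 lay below Pkd1 KO 3. Of the remaining membrane and tectonic proteins, Tmem231 (-0.62, adjusted p = 0.0401), Tmem67 (-0.49, adjusted p = 0.0261) and Tctn1 (-0.50, adjusted p = 0.0416) fell with groups apart. Mks1 (-0.025, adjusted p = 0.916), Rpgrip1l (0.16, adjusted p = 0.371) and Tctn3 (0.20, adjusted p = 0.288) did not pass.

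With offsets B9d1 (1.08, adjusted p = 0.00287) and B9d2 (0.61, adjusted p = 0.009299) remained higher and Cep290 (-1.28, adjusted p = 0.00921), Cc2d2a (-0.85, adjusted p = 0.0246) and Ahi1 (-0.49, adjusted p = 0.0343) remained lower. Tctn1 passed in the other direction (0.47, adjusted p = 0.0464), and Iqcb1 (0.38, adjusted p = 0.0957), Tmem216 (0.26, adjusted p = 0.135), Tmem231 (-0.18, adjusted p = 0.433), Tmem67 (-0.16, adjusted p = 0.434) and Nphp4 (-0.16, adjusted p = 0.7499) did not pass. Reads that fall where genes overlap on opposite strands are left out of these counts, and 4 calls ended when the counts of both strand columns were summed, which adds them. Because reads split evenly over the strands, the sum can also hold reads of the overlapping gene. The 2 sources cannot be told apart. The Cep290 count became 2.03 times as large and its fold change -0.061 (adjusted p = 0.842; -0.21 with offsets, adjusted p = 0.4099). Tctn1 became 2.25 times as large (-0.20, adjusted p = 0.263), Tmem216 1.38 times (0.35, adjusted p = 0.0775) and Tmem67 1.15 times (-0.35, adjusted p = 0.0823). B9d1 and B9d2 kept the call in all 6 fits that left out 1 library. Adjusted p exceeded the threshold for Iqcb1 (0.0523 to 0.0561, without Pkd1 KO 2 or control 1), for Cc2d2a (0.0609 to 0.0612, without Pkd1 KO 1 or Pkd1 KO 2), and for Cep290 without any 1 Pkd1 KO library (0.0596 to 0.0742). The same held without any 1 Pkd1 KO library or control 1 for Tmem216 (0.0655 to 0.0875), Tmem67 (0.0695 to 0.0941) and Ahi1 (0.0531 to 0.0767), and without any library but control 3 for Tmem231 (0.0619 to 0.127) and Tctn1 (0.0518 to 0.143). For Nphp4 it was 0.0865 to 0.137 without Pkd1 KO 1, Pkd1 KO 2, control 1 or control 2.

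**Figure D3:**
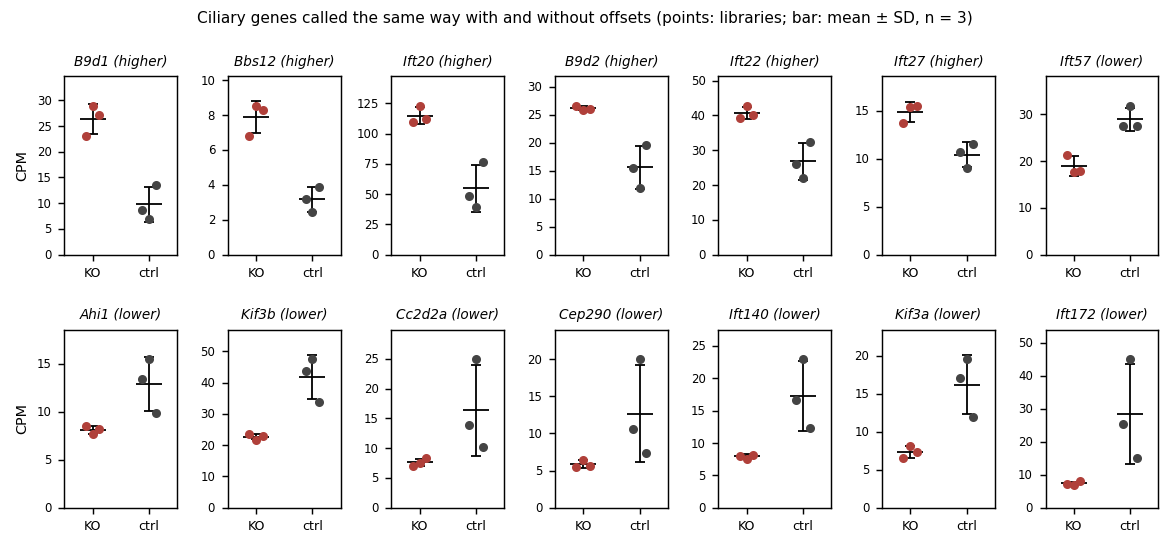
CPM in each library for the 14 ciliary genes called in the same direction with and without GC and length offsets (points are libraries, Pkd1 KO left and control right; bars are mean ± SD, n = 3 per group; each vertical axis starts at 0). In all 14 the groups do not overlap, and the control points of the genes that fell are more spread than the Pkd1 KO points.

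In the Inversin compartment, Anks6 fell and its partners did not pass the threshold. The share called was 33.3%, against 46.9% of all genes, and 66.7% with offsets, against 34.5%. Anks6, an ankyrin repeat protein that is mutated in the Han:SPRD cystic rat and activates the kinase Nek8, had 10.7, 6.95 and 6.99 CPM in Pkd1 KO, against 20.5, 24.3 and 13.2 CPM in control (log2 fold change -1.24 ± 0.26, adjusted p = 0.00596). No Pkd1 KO library reached the lowest control, and the call held in all 6 fits that left out 1 library. Nek8, the kinase mutated in the jck cystic mouse, had 13.5, 12.1 and 14.05 CPM in Pkd1 KO, against 13.1, 19.5 and 14.3 CPM in control (-0.24, adjusted p = 0.295). Invs, the inversin scaffold itself, had 33.1, 28.1 and 26.2 CPM in Pkd1 KO, against 24.6, 27.6 and 28.4 CPM in control (0.12, adjusted p = 0.527). Both overlapped between groups. With offsets Anks6, the gene with the highest GC content of the 52 (60.1%), did not pass (-0.16, adjusted p = 0.527). Invs (0.78, adjusted p = 0.0123) and Nek8 (0.55, adjusted p = 0.0171) then passed as higher.

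Of the genes that place lipid-anchored and receptor cargo in the ciliary membrane, 2 fell and none rose; with upper-quartile scaling Arl3 rose (0.54, adjusted p = 0.0316) and Tulp3 did not pass (-0.42, adjusted p = 0.0541). Tulp3, the adaptor that brings receptors into the cilium on IFT-A, had 50.03, 36.4 and 35.5 CPM in Pkd1 KO, against 63.6, 60.3 and 58.3 CPM in control (log2 fold change -0.58 ± 0.16, adjusted p = 0.0182). Inpp5e, the phosphatase that sets the ciliary phosphoinositides, had 20.5, 18.2 and 19.7 CPM in Pkd1 KO, against 32.6, 29.3 and 25.7 CPM in control (log2 fold change -0.59 ± 0.14, adjusted p = 0.0108). Neither overlapped, although Pkd1 KO 1 stood well above the other 2 Pkd1 KO libraries for Tulp3. Arl3, the GTPase that releases lipid-anchored cargo, had 81.9, 76.3 and 73.4 CPM in Pkd1 KO, against 59.1, 48.3 and 70.1 CPM in control (0.38, adjusted p = 0.07699), with the groups apart. Arl13b, the ciliary GTPase that activates Arl3, had 11.3, 14.1 and 11.8 CPM in Pkd1 KO, against 11.1, 11.9 and 11.8 CPM in control (0.095, adjusted p = 0.623), and Ofd1, a centriole protein of the basal body, had 9.72, 8.67 and 8.35 CPM in Pkd1 KO, against 8.798, 12.4 and 7.92 CPM in control (-0.12, adjusted p = 0.624). Both overlapped. None of these 5 genes passed with offsets. Without offsets 50% of the 4 cargo genes were called, against 46.9% of all genes. Adjusted p without single libraries exceeded the threshold for Tulp3 (0.0606 to 0.0909, without Pkd1 KO 2, Pkd1 KO 3 or control 1) and for Inpp5e (0.0601, without Pkd1 KO 2).

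The ciliary genes that rose were mostly short and those that fell mostly long. The 52 genes had a median exon length of 5365 bases and a median GC content of 47.6%, against 3787 bases and 49.4% over the 17785 tested genes with both properties. Of the 13 genes under 3000 bases of exon, 8 rose and 1, Ift57, fell. Between 3000 and 6000 bases 4 of 18 rose and 5 fell, and above 6000 bases none of 21 rose and 13 fell. Median log2 fold changes in the 3 length classes were 0.55, 0.0027 and -0.57 for the ciliary genes and 0.39, -0.066 and -0.40 for all genes. Spearman's rho of fold change with length was -0.62 across the 52 genes and -0.39 across all genes. Genes share libraries and are not independent replicates, so no p is given. With offsets rho was -0.27 across the 52 genes and -0.0086 across all genes, and the medians of the 3 classes were 0.14, -0.15 and -0.16 for the ciliary genes. IFT-B genes had a median of 3608 bases and IFT-A genes of 8807.5 bases. Ift57 at 2862 bases and Kif3a at 3586 bases fell although they are shorter than the median of all genes, and both fell further with offsets (-1.07 and -1.34).

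**Figure D4:**
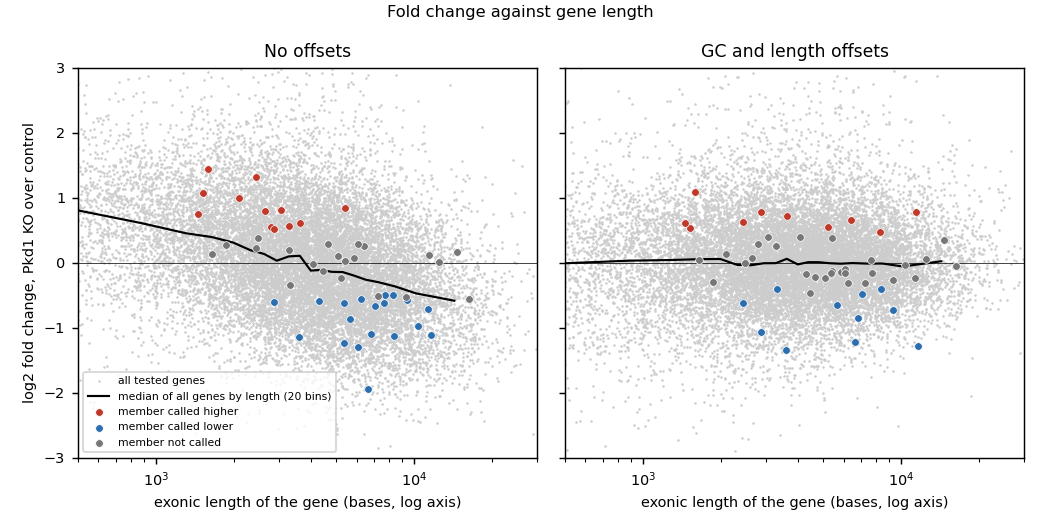
Log2 fold change, Pkd1 KO over control, against exonic gene length in bases (log axis) for all tested genes (light grey) and the 52 ciliary genes (red called higher, blue called lower, dark grey not called), without offsets on the left and with GC and length offsets on the right. The line is the median of all genes in 20 length bins; on the left it falls with length and the red points lie at the short end, on the right it lies near 0.

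Levels between subunits were compared per kilobase of exon (RPKM, TMM-scaled). Within IFT-B, Ift20 had the highest level, 75.3 ± 4.55 RPKM in Pkd1 KO and 36.03 ± 12.6 RPKM in control (SD, n = 3 each), followed by Ift52 with 29.4 ± 0.836 RPKM and 20.1 ± 3.07 RPKM. Ift172 was at 1.12 ± 0.0769 RPKM in Pkd1 KO and 4.302 ± 2.29 RPKM in control, and Ift80 at 1.58 ± 0.145 RPKM and 1.57 ± 0.0844 RPKM. In Pkd1 KO kidneys Ift172 thus had the lowest level of the IFT-B subunits, and in control kidneys Ift80 did. The control means of Ift27, Ift46, Ift81 and Ift88 lay within 1 SD of the control mean of Ift172. Among the motors, Dync2li1 had 21.99 ± 1.72 RPKM in Pkd1 KO and 18.3 ± 1.57 RPKM in control, while the heavy chain Dync2h1 had 0.811 ± 0.0772 RPKM and 1.19 ± 0.774 RPKM. Kif3b exceeded Kif3a in both groups, at 4.03 ± 0.155 RPKM against 2.04 ± 0.219 RPKM in Pkd1 KO and 7.39 ± 1.25 RPKM against 4.52 ± 1.07 RPKM in control. In the BBSome group Arl6 had the highest level, 32.8 ± 0.397 RPKM in Pkd1 KO and 16.4 ± 3.89 RPKM in control. The structural subunits in the set stood between 1.47 ± 0.136 RPKM (Bbs1) and 5.36 ± 0.208 RPKM (Bbs2) in Pkd1 KO. In the transition zone B9d2 (17.99 ± 0.242 RPKM in Pkd1 KO, 10.8 ± 2.65 RPKM in control) and B9d1 (16.6 ± 1.86 RPKM, 6.13 ± 2.12 RPKM) led, and Nphp4 had the lowest level, 0.106 ± 0.0388 RPKM in Pkd1 KO and 0.262 ± 0.135 RPKM in control. Exon length is the union of all annotated exons, which lowers the RPKM of genes with long alternative exons.

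Beyond the 52 genes, 8 lists of other ciliary genes held 113 symbols, 103 of them tested. Of these 22 rose and 29 fell (49.5%), close to the 46.9% of all genes. Of 18 transport genes outside the set, 9 rose and 2 fell (4 and 2 in both fits). That was 61.1%, against 46.9% of all genes, and 33.3% in both fits, against 24.7%. Means carry the SD over 3 libraries. Hspb11, the Ift25 partner of Ift27, averaged 13.1 ± 2.65 CPM in Pkd1 KO kidneys and 5.42 ± 1.52 CPM in control kidneys (log2 fold change 1.28 ± 0.24, adjusted p = 0.00394). Mkks, the chaperonin-like partner of Bbs10 and Bbs12, averaged 57.4 ± 7.16 CPM and 25.6 ± 14.1 CPM (log2 fold change 1.17 ± 0.37, adjusted p = 0.0303). Both stood on the same side as these partners, while Traf3ip1, given next, fell and its neighbour Ift20 rose. The genes that fell were Wdr60, a dynein-2 intermediate chain, at 5.64 ± 0.709 CPM in Pkd1 KO and 11.8 ± 3.27 CPM in control (log2 fold change -1.06 ± 0.22, adjusted p = 0.00565), and Traf3ip1, the IFT54 subunit next to Ift20, at 7.66 ± 0.784 CPM and 15.4 ± 4.64 CPM (log2 fold change -1.01 ± 0.23, adjusted p = 0.00838). Hspb11, Wdr60 and Traf3ip1 kept the call with offsets, and Mkks did not (0.75, adjusted p = 0.0827).

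A list of 14 other genes held transition zone genes and also Fuz, Intu, Pde6d and Unc119b. Of the 14, 4 rose and 1 fell (3 and none in both fits). The share was 35.7%, against 46.9% of all genes, and 21.4% in both fits, against 24.7%. The membrane protein Tmem17 (1.34, adjusted p = 0.00259) and the GTPase regulator Rpgr (0.80, adjusted p = 0.00464) had the largest rises. Both also rose with offsets (0.84, adjusted p = 0.00718) and (0.65, adjusted p = 0.00796). Intu, a planar polarity protein of the base, fell (-0.43, adjusted p = 0.0459), but neither with offsets nor with upper-quartile scaling. Of 20 centriole and basal body genes, 2 rose and 9 fell (1 and 4 in both fits). That was 55%, against 46.9% of all genes, and 25% in both fits, against 24.7%. Cep131, a centriolar satellite protein, averaged 1.11 ± 0.366 CPM in Pkd1 KO and 5.37 ± 2.73 CPM in control (log2 fold change -2.27 ± 0.40, adjusted p = 0.00343), and Ninl, a microtubule anchor, averaged 7.66 ± 0.336 CPM and 30.5 ± 8.43 CPM (log2 fold change -1.99 ± 0.21, adjusted p = 0.001897). Both kept the call with offsets (-1.31, adjusted p = 0.00981) and (-1.36, adjusted p = 0.00116). Rab11a (0.86, adjusted p = 0.00507) and Rab23 (0.59, adjusted p = 0.00855), vesicle GTPases that serve the cilium, rose. With offsets Rab11a did not pass (0.059, adjusted p = 0.706) and Rab23 did (0.85, adjusted p = 0.00275).

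Hedgehog pathway genes, whose signal passes through the primary cilium, had none higher and 9 lower of 15 (60%, against 46.9% of all genes called). With offsets 1 was higher and 3 lower (26.7%, against 34.5% of all genes). In both fits 20% were called, against 24.7% of all genes. Their median GC content was 56.8% and their median exon length 6869 bases, against 49.4% and 3787 bases over all genes. Evc, part of a complex near the ciliary base, averaged 61.1 ± 4.43 CPM in Pkd1 KO and 209 ± 43.6 CPM in control (log2 fold change -1.78 ± 0.18, adjusted p = 0.00178). Evc2, its partner, averaged 16.7 ± 1.399 CPM and 43.2 ± 10.9 CPM (log2 fold change -1.37 ± 0.20, adjusted p = 0.00259). Ptch1, both the receptor and a target gene of the pathway, averaged 18.9 ± 1.09 CPM and 48.7 ± 11.7 CPM (log2 fold change -1.37 ± 0.18, adjusted p = 0.00234). These 3 kept the call with offsets (-0.73, -0.49 and -0.66), and the list median was -0.82 without and -0.23 with offsets. Among factors that drive ciliary genes, 5 fell and 1 rose of 8 tested (2 and 1 in both fits). That was 75%, against 46.9% of all genes, and 37.5% in both fits, against 24.7%. Rfx2 (-1.30, adjusted p = 0.0125) and Rfx1 (-1.13, adjusted p = 0.00296), which bind the X-box, fell, but not with offsets (-0.45, adjusted p = 0.173) and (0.093, adjusted p = 0.574). Rfx3, the family member best known for ciliary genes, had 9.16, 8.45 and 7.702 CPM in Pkd1 KO, against 8.53, 10.2 and 8.1002 CPM in control (-0.083, adjusted p = 0.695). Gmnc, a starter of multiciliated cell fate, rose (2.92, adjusted p = 0.00858) at a level of 0.454 ± 0.247 CPM in Pkd1 KO and 0.05501 ± 0.043004 CPM in control, and also with offsets (2.28, adjusted p = 0.0349).

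Of 8 genes of cilium disassembly 3 rose and 1 fell (2 and 1 with DESeq2's size factors). That was 50%, against 46.9% of all genes, and 50% in both fits, against 24.7%. Aurka, the mitotic kinase that also starts ciliary resorption, averaged 7.36 ± 1.77 CPM in Pkd1 KO and 1.71 ± 0.121 CPM in control (log2 fold change 2.10 ± 0.22, adjusted p = 0.00192), and Nek2, a centrosome kinase, averaged 7.68 ± 0.747 CPM and 5.29 ± 1.01 CPM (log2 fold change 0.54 ± 0.19, adjusted p = 0.0444). Hdac6, the tubulin deacetylase, fell (-1.03, adjusted p = 0.00606). All 3 kept the call with offsets. Aurka and Nek2 are cell cycle genes too, and the 4 proliferation markers all rose in the same libraries, as given above. Of 6 tested genes that modify ciliary tubulin, Ttll5, a tubulin glutamylase, fell (-0.996, adjusted p = 0.00388) and so did Agbl5, a deglutamylase (-0.63, adjusted p = 0.0468), neither with offsets. The share called was 33.3%, against 46.9% of all genes. The Agbl5 count was 7.72 times as large when reads of both strand columns were summed, which can include reads of an overlapping gene.

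Motile cilium genes were searched for multiciliated cells, which a normal kidney tubule lacks. The summed level of 20 such genes was 61.6 to 68.9 CPM in the Pkd1 KO libraries, against 39.9 to 48.2 CPM in the control libraries, with 12 of the 20 under 1 CPM in every library. Zmynd10, a dynein assembly factor, made up most of it, at 45.8, 42.98 and 40.4 CPM in the Pkd1 KO kidneys and 21.2, 29.1 and 28.5 CPM in the control kidneys. Ccdc39 (0.78, adjusted p = 0.0253), Dnah11 (0.75, adjusted p = 0.0261) and Zmynd10 (0.71, adjusted p = 0.00744) rose and no gene of the 14 tested fell. The share that rose was 21.4%, against 22.7% of all genes. With offsets 3 genes passed as higher (21.4%, against 17.1% of all genes). Dnah11 (1.44, adjusted p = 0.00627) and Zmynd10 (0.77, adjusted p = 0.00535) were among them, and Ccdc39 was not (0.43, adjusted p = 0.173). Foxj1, the master factor of motile cilia, stood at 0.263, 0.40997 and 0.4104 CPM in the Pkd1 KO kidneys and 0.252, 0.259 and 0.381 CPM in the control kidneys (0.29, adjusted p = 0.558).

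**Figure D5:**
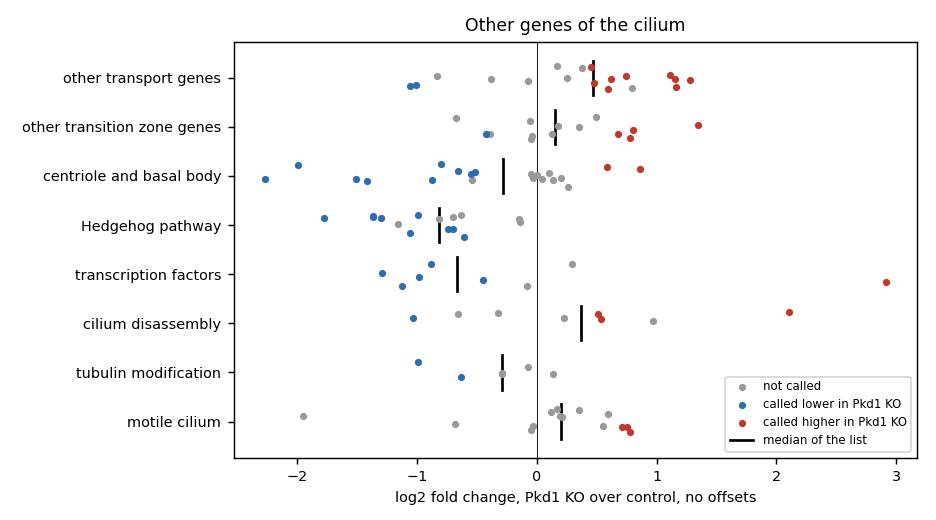
Log2 fold change without offsets, Pkd1 KO over control, of the 103 tested genes in 8 lists of other ciliary genes (1 point per gene; red called higher, blue called lower, grey not called; black bars are list medians). All 15 Hedgehog genes lie below 0 (11 with offsets and 13 with upper-quartile scaling), and 13 of 18 transport genes lie above it (14 with either).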

How the data were processed

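Poly-A RNA of 6 whole kidneys, 3 Pkd1 KO and 3 control, was sequenced, and groups were taken from the sample titles. The deposited values are raw read counts per gene in 7 tables, 2 of them runs of control 1 that were summed, not normalized by the authors. Per the submitters' processing notes, STAR 2.6.1e, cutadapt 4.0 and FastQC 0.11.8 were used with build GRCm39; the sources used here give no gene annotation. The column that ignores strand was used, since reads split evenly over the strands (49.1% to 49.96% on the first), and reads of genes that overlap on opposite strands stay out of it. The 4 lines per table that name no gene held 25.3% to 26.3% of reads in Pkd1 KO and 22.9% to 23.8% in control and stayed out of the library sizes. Reads that map to several places are not counted.

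Genes were tested by edgeR's quasi-likelihood method (edgeR 4.0.16, R 4.3.3) in all 6 libraries, with filterByExpr, TMM and Benjamini-Hochberg adjustment over 18273 genes at 0.05; the common biological coefficient of variation was 21.4%. A second fit added per-library offsets from a robust local linear surface (span 0.3) of log2 CPM relative to the gene mean against GC content and log2 exon length, over 17785 genes. It would also remove a change shared by long or GC-rich genes. Symbols, exon lengths and GC content came from GENCODE M21 by identifier (52073 of 56923 matched); it describes an older build, so no coordinates from it are printed. Promoters came from RefSeq (GRCm38.p6) by symbol. The scripts were tested on simulated counts.

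The 53 genes, the other lists and the tests were chosen with earlier results of these data known. Named genes are Pkd1, up to 4 called genes per complex in each direction in every library, and all other members by value. They also include up to 2 called genes per other list in each direction. Some were added after their values were seen: Zmynd10, Rfx3, Foxj1, Ptch1, Bbip1, Ttc8, Kifap3, Tctex1d2 and Wdr34. So were the values per library of Ift27 and of members that did not pass. Whether samples come from separate litters is not given, so p-values measure the spread between these samples. Alternatives were DESeq2 1.42.0, its size factors, upper-quartile scaling, no filter, summed strand columns, the deeper run of control 1, a replicate block and each library left out.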

Additional observations from a re-analysis of the deposited data

How the results depend on the processing

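The count of 31 changed ciliary genes was 26 to 32 with DESeq2, its size factors, upper-quartile scaling, no filter, summed strand columns or 1 run of control 1, and 12 to 36 when 1 library was left out (12 higher: 6 to 13; 19 lower: 6 to 23). Upper-quartile scaling put the median over all tested genes at a log2 fold change of 0.19, where it was 0.026, and the ciliary median at 0.16, with 15 higher and 11 lower, against 28.9% and 18.9% of all genes. With GC and length offsets 11 genes were lower and the median was -0.11; Bbs1 (0.036) and Tctn1 (0.47) turned sign, and Pkd1 was -0.34 (adjusted p = 0.0644). A quadratic least-squares surface, chosen after seeing the data like the other offset alternatives, also gave 21. Leaving out 1 library gave 11 to 26 changed genes with offsets and 5 to 19 that passed in both fits. The share of all genes changed in these fits ran from 27.1% to 54.5% without offsets and from 15.6% to 40.8% with them. For both fits together that share was not taken. Without offsets, leaving out 1 library gave a ciliary median of -0.12 to 0.055, and 32 to 58 of the other ciliary genes against 51. Without offsets Pkd1 stayed past the threshold in each fit that left out 1 library. All 12 of Ift20, Ift74, Arl6, Bbs12, B9d1, B9d2, Ift172, Ift122, Ift140, Kif3a, Kif3b and Anks6 kept the call of the fit without offsets when any 1 library was left out, and no called gene changed sign there. Same-numbered libraries did not deviate together (correlations 0.038, -0.084 and -0.029), so the number is not a pairing; with it as a replicate block 25 ciliary genes changed (11 higher, 14 lower), 11 in both fits. The replicate block with GC and length offsets gave 17 changed, 8 of them lower, a median of -0.11, Pkd1 at -0.33 (adjusted p = 0.0928), Bbs1 at 0.036 and Tctn1 at 0.48; Ift140 (adjusted p = 0.0807) and Ahi1 (0.0602) did not pass there. With 3 libraries per group and a coefficient of variation of 21.4%, changes well under 2-fold in the less abundant genes may go undetected.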
